A study of Mus musculus with 12 samples.

Results

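The Polo-like kinases are a family of 5 serine/threonine kinase genes in the mouse, Plk1 to Plk5, and their transcripts were followed in hippocampal slices after chemical induction of long-term potentiation (LTP). The members were chosen by name: Ensembl gene IDs were matched to symbols with GENCODE release M21, and all 5 genes were found among the 41091 gene IDs of each count table. All 5 passed the filter on low counts in every comparison. Total RNA, depleted of ribosomal RNA, was sequenced from slices of male wild-type C57BL/6 mice aged 2 to 3 months, from which the dentate gyrus had been cut away. The LTP slices were perfused with 50 uM forskolin for 5 min and then for a further 5 min with forskolin, 30 mM KCl and 10 mM calcium, whereas the control slices had 10 min of 0.2% DMSO. Slices were frozen 1 hr or 3 hr afterwards, which gave LTP and control groups of 3 libraries each at either time. Each library pooled slices of a single animal, and the slices of an animal were divided between LTP and control. Per the study's methods, libraries were made only from samples in which RT-qPCR had found more Arc mRNA after induction, so the LTP groups are slices selected for a transcriptional response.

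Polo-like kinases carry a kinase domain and, towards the C terminus, polo-box sequences that dock onto other phosphorylated proteins. Plk1 drives entry into mitosis, spindle assembly and cytokinesis, and Plk4 starts the duplication of centrioles, so both are best known from dividing cells. Plk2 and Plk3 are also induced by growth factors, stress and, in neurons, by synaptic activity, and Plk2 is known for promoting the loss of the spine protein SPAR, the product of Sipa1l1, in overactive neurons. Plk5 is expressed mainly in nervous tissue and has little or no kinase activity.

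The 2 members whose transcripts rose after LTP induction are shown here by the 250 bases before their start sites, since forskolin acts through cAMP and the cAMP response element (CRE) is a promoter motif bound by CREB family factors. The sequences are from RefSeq on GRCm38.p6, written 5′ to 3′ on the strand of the gene, and capitals mark the full CRE letters TGACGTCA or its shorter core TGACG. Plk2 is at chr13:110394794-110395043 on the plus strand and Plk3 at chr4:117133964-117134213 on the minus strand.
Plk2: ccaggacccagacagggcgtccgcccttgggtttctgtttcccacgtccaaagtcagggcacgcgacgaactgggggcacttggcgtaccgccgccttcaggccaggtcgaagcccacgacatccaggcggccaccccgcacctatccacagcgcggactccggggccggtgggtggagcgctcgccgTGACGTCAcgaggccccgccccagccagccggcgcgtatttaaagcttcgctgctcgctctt
Plk3: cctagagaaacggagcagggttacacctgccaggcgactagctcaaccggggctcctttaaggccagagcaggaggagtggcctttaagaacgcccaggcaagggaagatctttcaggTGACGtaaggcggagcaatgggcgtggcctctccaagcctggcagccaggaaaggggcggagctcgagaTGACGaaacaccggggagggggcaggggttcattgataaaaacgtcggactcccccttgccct
The Plk2 promoter held the full CRE letters at positions -62 to -55 from the start site. The Plk3 promoter held no full CRE and 2 cores, whose first bases were 132 and 63 bases before the start. A core on the other strand was also found 22 bases into the Plk2 transcript and 30 bases before the Plk4 start, and the Plk1 and Plk5 windows held neither motif. Among 32851 RefSeq promoter windows of 300 bases (250 before and 50 after a start), 1.79% held a full CRE on either strand, 20.81% held at least 1 core and 5.01% held at least 2, where a full CRE counts as 2 overlapping cores. Neither AP-1 letters (TGANTCA, in 7.81% of windows), nor Egr letters (GCGNGGGCG, in 5.55%), nor TATAAA (in 13.62%), nor a CArG box (in 1.63%) was found in any of the 5 member windows on either strand. The motifs were chosen after these sequences had been seen, and matching letters are a description of the sequence, not a measured binding site.

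The 12 libraries held from 37118382 to 50815001 counts. Levels are given as CPM, counts scaled to library size after TMM normalization over the 12 libraries, and 3 counts corresponded to between 0.059 and 0.0808 CPM by raw library totals, before the TMM factors. The study set 1 hr control replicate 2 aside as an outlier of its clustering; its values are given here, but it did not enter the tests unless stated. All 43 markers of 13 hippocampal and neighbouring cell types were detected. After LTP 1 of them was called at 1 hr (a mural cell marker, lower), beside 0.789% of all genes. At 3 hr 1 was called (a CA1 marker, higher), beside 6.6% of all genes. Of the 4 cycling-cell markers 3 were tested at either time, and of the 3 ependyma and choroid plexus markers 2 were tested at 3 hr. The sum of the 3 endothelial markers was lower in every 1 hr LTP library (64.68 to 66.44 CPM) than in every 1 hr control (75.56 to 82.52 CPM), with 0 of the 3 called, and its part in the 1 hr changes of Plk2 and Plk3 was not tested. At 3 hr the inhibitory neuron sum was higher in every LTP library (496 to 498.1 CPM) than in every control (450.6 to 492.9 CPM). So was the ependyma and choroid plexus sum (34.43 to 37.97 against 31.22 to 34.24 CPM). No marker of either was called at 3 hr, and their part in the 3 hr values of Plk2 and Plk3 was not tested. Markers of dentate granule cells (Prox1, Dsp and C1ql2) summed to between 111.8 and 213.2 CPM despite the trimming, and none of the 3 was called in any comparison. Markers of cycling cells, including Mki67 and Top2a, summed to between 9.13 and 11.4 CPM. Slices are bulk tissue, in which fewer cells of a type and less RNA per cell cannot be told apart.

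Per kilobase of exonic sequence, Plk2 was by far the most abundant Polo-like kinase transcript in these slices. Its level averaged 167.8 CPM per kb over the 12 libraries, against 9.42 for Plk3, 3.26 for Plk5, 0.674 for Plk4 and 0.305 for Plk1. In every library this order was the same, and the ranges over libraries of neighbours in the order did not overlap. Within a library, the level of Plk2 per kb was between 12.9 and 27.3 times that of Plk3 (median 17.1). The level of Plk3 was between 2.01 and 5.32 times that of Plk5, that of Plk5 between 2.59 and 7.87 times that of Plk4, and that of Plk4 between 1.44 and 3.61 times that of Plk1. Plk2 alone made up from 89.3% to 94.4% of the summed level of the family per kb. Per kb of coding sequence, a divisor added after seeing the data, the order was again the same in every library and the share of Plk2 was from 92.9% to 96.3%, but the ranges of Plk3 and Plk5 over libraries overlapped and the median ratio of Plk2 to Plk3 was 28.7. Plk1, the mitotic kinase, lay on between 16 and 50 counts per library, so that counting error alone is from 14.1% to 25% of its value, whereas Plk2 lay on between 24115 and 43214 counts, with a counting error of 0.481% to 0.644%.

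**Figure D1:**
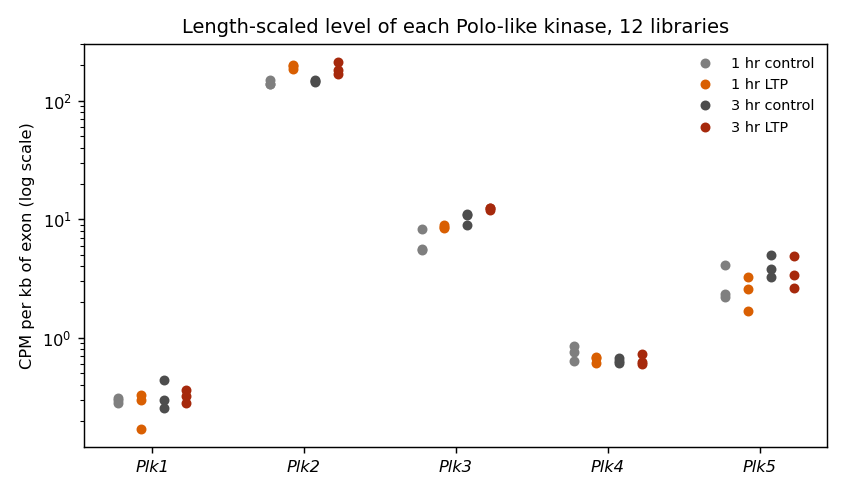
Level of each Polo-like kinase in CPM per kb of exonic sequence (log axis), with 1 point per library and the groups in colours. Plk2 averaged 167.8 CPM per kb, and the 5 genes occupied ranges that did not overlap.

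At 1 hr after LTP induction, Plk2 and Plk3 rose and the other members did not pass the test. Plk3 was 1.56-fold and Plk2 1.36-fold higher in LTP than in control slices. Calls are by edgeR's quasi-likelihood test with Benjamini-Hochberg adjustment over all genes tested, and required both an adjusted p below 0.1 and a change of more than 1.2-fold. By this rule 2 of the 5 members were called, where 0.789% of all 17736 genes tested were called. The median log2 fold change of the members was 0.151, and that of all genes was -0.00103.

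At 3 hr, Plk2 was still called, at 1.29-fold, and Plk3 was 1.2-fold higher without passing the test. Here 1 of 5 members was called, against 6.6% of 17508 genes. Plk1, Plk4 and Plk5 had estimates on either side of 0 with 95% intervals that included 0 at both times. The median log2 fold change was 0.0426 for the members and -0.00248 for all genes.

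**Figure D2:**
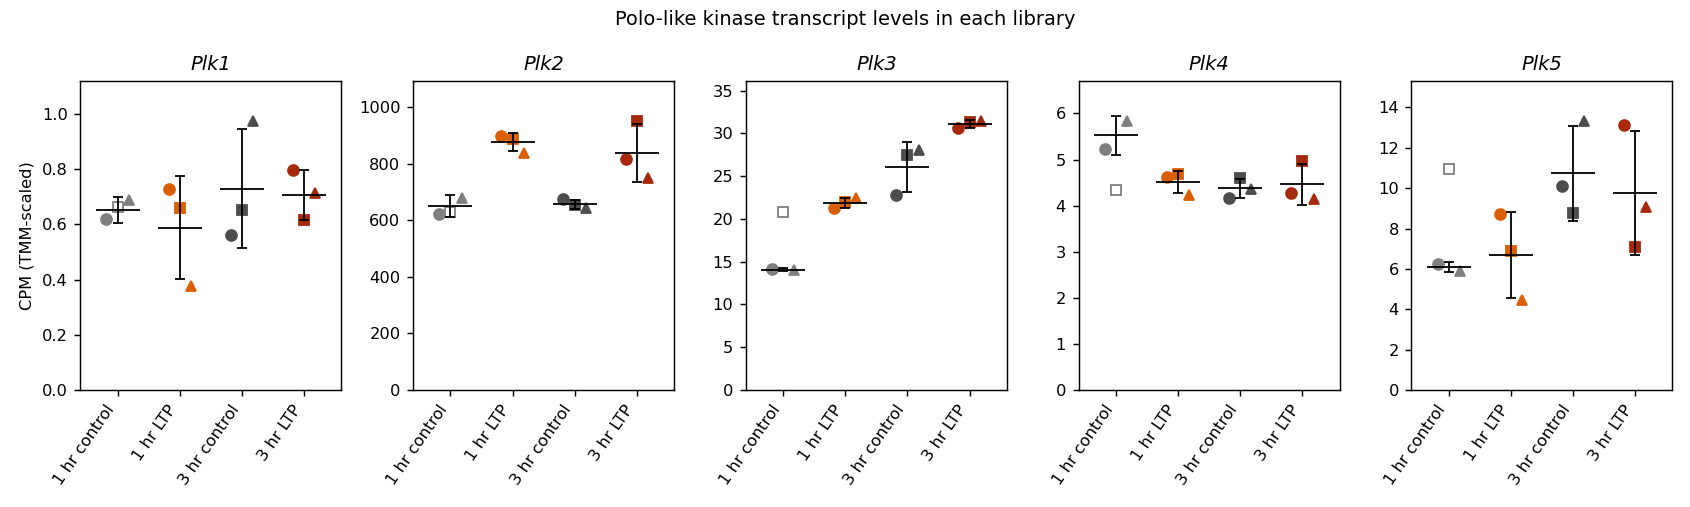
CPM of each member in all 12 libraries, in the 4 groups, with the mean and SD (bars) over the libraries that entered the tests and 1 symbol shape per replicate number. Plk2 and Plk3 lay higher in every LTP library than in every control library of the same time, and the open symbol is 1 hr control replicate 2, which was set aside.

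Plk2 lies on chromosome 13 (chr13:110395046-110400844, plus strand of GRCm38, ENSMUSG00000021701.7) and shares no exonic base with another gene. Its level was 623 and 678 CPM in 1 hr control replicates 1 and 3 and 628 CPM in the replicate that was set aside. In the 1 hr LTP libraries it was 899.6, 888 and 839 CPM. Every LTP library thus exceeded every control library, the set-aside library included, and the lowest of the LTP values came from animal 3, whose control was the highest. The group means were 650.3 ± 38.6 CPM in control (SD, n = 2) and 875.6 ± 32.2 CPM in LTP (SD, n = 3). The log2 fold change was 0.44 (SE 0.067, 95% interval 0.296 to 0.584), with an adjusted p of 0.00378 by edgeR's quasi-likelihood test, the 56th smallest p of 17736 genes. Without 1 hr control replicate 1 the log2 fold change was 0.38 and the call was lost (adjusted p = 0.243), in a fit that left a single control library, assumed to vary like the LTP libraries. It was held in the other 13 of 14 alternatives, over all of which the adjusted p ran from 9.92e-08 to 0.243.

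At 3 hr, Plk2 stood at 674, 655 and 642 CPM in the controls. In the LTP libraries of the same animals it was 815, 950 and 749.9 CPM. The groups did not overlap, and the LTP libraries were spread more widely, with means of 657 ± 16.1 CPM in control and 838.4 ± 102 CPM in LTP (SD, n = 3 each). LTP replicate 2, with the highest Plk2 level of all 12 libraries, had the lowest summed level of excitatory neuron markers at 2586 CPM, where the other libraries lay between 2661 and 4134 CPM, and the part of cell composition in the Plk2 value was not tested. The log2 fold change was 0.365 (SE 0.088, 95% interval 0.166 to 0.564), with an adjusted p of 0.0586 by edgeR's quasi-likelihood test. This call was lost without control replicate 1, 2 or 3 or LTP replicate 1 (adjusted p = 0.184, 0.241, 0.167 and 0.163) and held in the other 9 of 13 alternatives, with adjusted p from 0.00353 to 0.241 over all 13.

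Animal by animal, Plk2 was higher in LTP than in control slices in 6 of 6 pairs of libraries. The labels leave unsaid whether the mice at 1 hr and 3 hr differ. The log2 ratios within an animal were 0.53, 0.50 and 0.31 at 1 hr and 0.27, 0.54 and 0.22 at 3 hr, where the ratio of animal 2 at 1 hr used the set-aside control. The LTP effect at 3 hr was lower than that at 1 hr by a log2 difference of -0.068 (95% interval -0.318 to 0.183), which did not pass the test (edgeR adjusted p = 0.971). With each library left out in turn, this difference ran from -0.186 to -0.0105. The control level of Plk2 hardly differed between the times. Its log2 difference of 3 hr against 1 hr controls was -0.014 (95% interval -0.201 to 0.172, edgeR adjusted p = 0.918), and the sign of so small a value turned under another scaling or filter.

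Plk3 lies on chromosome 4 (chr4:117128655-117133963, minus strand, ENSMUSG00000028680.9), and 3.3% of its exonic bases overlap Tctex1d4 on the other strand, which averaged 0.286 CPM. At 1 hr, Plk3 stood at 14.2 and 13.98 CPM in the controls that were tested. The set-aside control had 20.8 CPM. In the LTP libraries the level was 21.2, 21.9 and 22.5 CPM, so that the LTP libraries lay close together and above every control, by little in the case of the set-aside library. The means were 14.1 ± 0.141 CPM in control (SD, n = 2) and 21.9 ± 0.611 CPM in LTP (SD, n = 3). The log2 fold change was 0.65 (SE 0.092, 95% interval 0.448 to 0.843), with an adjusted p of 0.00221 by edgeR's quasi-likelihood test, the 46th smallest of 17736 genes. The call was lost when the set-aside library was included, where the log2 fold change was 0.43 (adjusted p = 0.307), or 0.45 with animals as a replicate block (adjusted p = 0.386). It held in the other 12 of 14 alternatives, and the adjusted p ran from 1.4e-06 to 0.386 over all 14.

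At 3 hr, Plk3 stood at 22.7, 27.4 and 28.05 CPM in the controls and at 30.6, 31.3 and 31.4 CPM in the LTP libraries. Again no LTP library overlapped with a control, and the LTP libraries varied less (31.1 ± 0.453 CPM, SD, n = 3) than the controls (26.1 ± 2.90 CPM, SD, n = 3). The log2 fold change of 0.27 (SE 0.091, 95% interval 0.06 to 0.473) did not pass the test by edgeR's quasi-likelihood fit (adjusted p = 0.146). It was called with animals as a replicate block (0.27, adjusted p = 0.0869), in the model of all 4 groups (0.26, adjusted p = 0.0797) and by DESeq2 (0.27, adjusted p = 0.0919), and over its 13 alternatives the adjusted p ran from 0.0797 to 0.393. Without 3 hr control replicate 1, the lowest of the controls, the log2 fold change was 0.177.

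Within animals, Plk3 was likewise higher in LTP slices in 6 of 6 animals, with log2 ratios of 0.58, 0.07 and 0.68 at 1 hr and of 0.43, 0.19 and 0.16 at 3 hr. The ratio of 0.07 is that of animal 2, whose control was the set-aside library. The LTP effect was lower at 3 hr than at 1 hr by a log2 difference of -0.37 (95% interval -0.641 to -0.102), or of -0.165 with the set-aside library included. This did not pass the test over all genes (edgeR adjusted p = 0.56), nor did it in any of 19 alternatives (adjusted p from 0.307 to 0.999). By edgeR, 0 of the 5 members were called for such a difference, against 0.0592% of 18584 genes. Plk3 was the 1 member with an unadjusted p under 0.05, and DESeq2 called 0 of the 4 members for which it gave an adjusted p, Plk1 not among them.

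**Figure D3:**
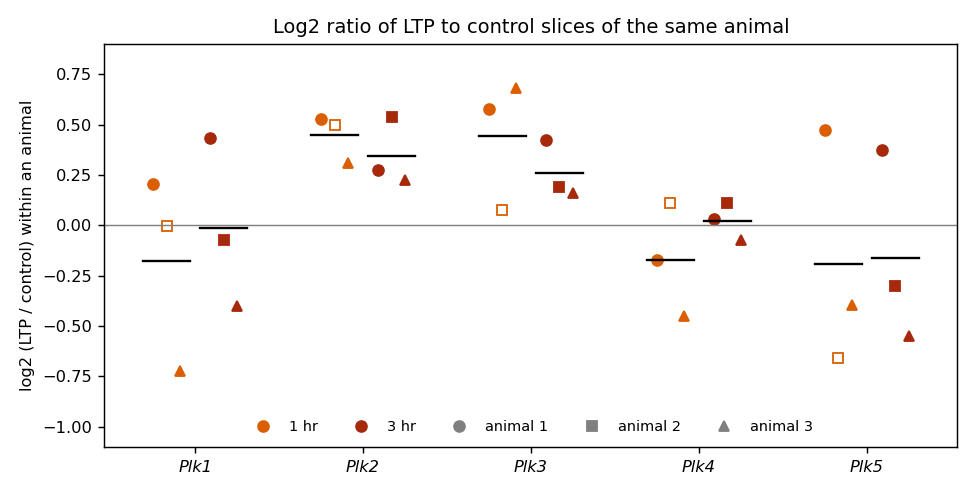
Log2 ratio of LTP to control CPM (pseudocount 0.1 CPM) within each animal for the 5 members at 1 hr and 3 hr, with the mean of each time as a bar. Plk2 and Plk3 were above 0 in 6 of 6 pairs of libraries, and animal 2 at 1 hr (open) used the set-aside control.

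Plk5 lies on chromosome 10 (chr10:80356459-80365489, plus strand, ENSMUSG00000035486.9). It varied most of the 5 members over the 12 libraries, with a coefficient of variation of 32%. At 1 hr it stood at 6.25 and 5.9 CPM in the controls, at 10.97 CPM in the set-aside control and at 8.73, 6.91 and 4.47 CPM in the LTP libraries. At 3 hr the controls had 10.1, 8.76 and 13.3 CPM and the LTP libraries 13.1, 7.08 and 9.05 CPM. LTP and control libraries overlapped at both times. The log2 fold change was 0.15 at 1 hr (95% interval -0.303 to 0.605, edgeR adjusted p = 0.96) and -0.13 at 3 hr (95% interval -0.642 to 0.39, edgeR adjusted p = 0.802), and both changed sign under some alternatives.

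The animals did not move together for Plk5. Their numbers do not link the times, as the animals at 1 hr and 3 hr were taken to differ. At 1 hr Plk5 was higher in LTP slices in animal 1 (log2 ratio 0.47). It was lower in animals 2 and 3 (-0.66 and -0.39), where animal 2 used the set-aside control. At 3 hr it was higher in LTP slices in animal 1 (0.37) and lower in animals 2 and 3 (-0.30 and -0.55). The summed level of the dentate granule cell markers moved in the same direction in each of these pairs. At 1 hr these markers went from 164.7 to 190.9 CPM in animal 1, from 164.8 to 147.1 in animal 2 and from 147.0 to 111.8 in animal 3. At 3 hr they went from 164.5 to 213.2 CPM, from 135.0 to 124.2 and from 164.7 to 131.9 in animals 1 to 3. Dentate granule cells are 1 of 13 marker sets, and not every set moved with Plk5. The CA1 sum, for example, was higher in LTP slices in animal 3 at 1 hr (93.59 to 95.15 CPM) and in animal 3 at 3 hr (99.9 to 125.4 CPM). The part of dentate granule cells in the Plk5 values was not tested.

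Plk4, the centriole kinase, lies on chromosome 3 (chr3:40800019-40816883, plus strand, ENSMUSG00000025758.6) and varied least, with a coefficient of variation of 10.9%. At 1 hr it stood at 5.22 and 5.83 CPM in the controls, at 4.35 CPM in the set-aside control and at 4.62, 4.70 and 4.23 CPM in the LTP libraries. The LTP libraries were below both controls that were tested, and of them only replicate 3 was below the set-aside one. The log2 fold change was -0.28 (95% interval -0.601 to 0.0379), which did not pass the test (edgeR adjusted p = 0.808), and was -0.174 with the set-aside library included. At 3 hr the controls had 4.18, 4.60 and 4.36 CPM and the LTP libraries 4.27, 4.97 and 4.14 CPM, which overlapped, with a log2 fold change of 0.043 (95% interval -0.213 to 0.298, edgeR adjusted p = 0.872).

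Plk1 lies on chromosome 7 (chr7:122159439-122169873, plus strand, ENSMUSG00000030867.6), and 7.1% of its exonic bases overlap exons of another gene. It was at 0.62 and 0.687 CPM in the 1 hr controls, 0.662 CPM in the set-aside control and 0.729, 0.659 and 0.376 CPM in the 1 hr LTP libraries. At 3 hr it was at 0.563, 0.654 and 0.973 CPM in control and at 0.796, 0.616 and 0.713 CPM in LTP. The groups overlapped at both times. At this depth no effect of LTP on Plk1 was detectable: the log2 fold changes were -0.15 at 1 hr (95% interval -0.993 to 0.701) and -0.041 at 3 hr (95% interval -0.636 to 0.554), so that a change of 1.2-fold in either direction lies within both intervals.

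**Figure D4:**
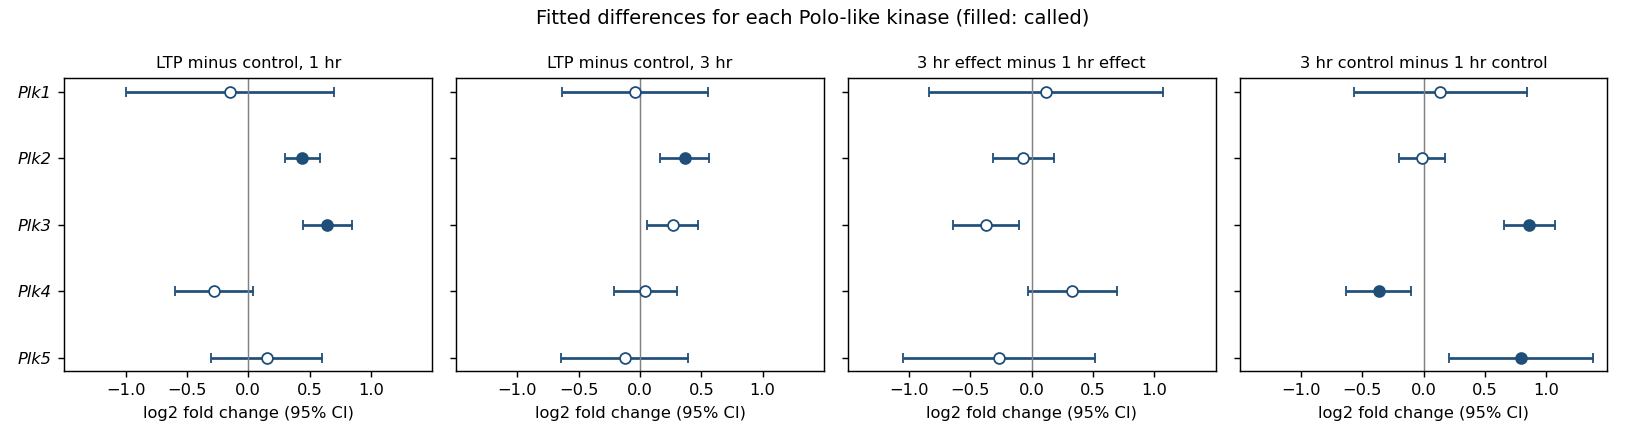
Log2 fold change of each member with its 95% interval, in LTP against control at 1 hr and 3 hr, in the difference between these effects and in the 3 hr against the 1 hr control, with called members filled. The intervals of Plk2 and Plk3 exclude 0 at both times after LTP, and those of Plk3, Plk4 and Plk5 exclude 0 between the controls.

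The control slices themselves differed between the times for 3 of the 5 members. Plk3 and Plk5 were higher and Plk4 was lower in 3 hr than in 1 hr controls. This comparison called 32.8% of 18584 genes, and it does not separate time from animal, since the animals at the 2 times were taken to differ. Plk3 rose from 14.1 to 26.1 CPM, a fold of 1.82 (log2 0.86, SE 0.096, 95% interval 0.654 to 1.07, edgeR adjusted p = 7.32e-05), and was called in all 17 alternatives. The lowest 3 hr control, at 22.7 CPM, was level with the 1 hr LTP libraries of 21.2 to 22.5 CPM and the others were above them. Plk5 averaged 6.08 ± 0.249 CPM in 1 hr controls (SD, n = 2) and rose to 10.7 ± 2.34 CPM in 3 hr controls (SD, n = 3), a fold of 1.73 (log2 0.80 with 95% interval 0.205 to 1.38, edgeR adjusted p = 0.0413). The dentate granule cell markers did not rise with it, as they summed to 164.7 and 147.0 CPM in the tested 1 hr controls and to between 135.0 and 164.7 CPM in the 3 hr controls. Plk4 averaged 5.52 ± 0.431 CPM in 1 hr controls (SD, n = 2) and fell to 4.38 ± 0.211 CPM in 3 hr controls (SD, n = 3), a fold of 0.776 (log2 -0.365 with 95% interval -0.631 to -0.0993, edgeR adjusted p = 0.0382). With the set-aside library included, neither Plk5 (log2 0.47, adjusted p = 0.212) nor Plk4 (log2 -0.23, adjusted p = 0.205) was called. Over 17 alternatives the adjusted p ran from 0.000162 to 0.212 for Plk5 and from 0.0401 to 0.321 for Plk4. Leaving out 1 hr control replicate 1, 1 hr control replicate 3 or 3 hr control replicate 3 also ended the Plk5 call, and leaving out 1 hr control replicate 3, 3 hr control replicate 1 or 3 hr control replicate 3 that of Plk4. Microglia, mural and endothelial markers also differed between these controls, with 3 of 4, 3 of 3 and 2 of 3 called lower at 3 hr. Of the inhibitory neuron, CA3, oligodendrocyte and oligodendrocyte precursor markers 1 each was called higher. The CA3 sum was 113.7 and 109.6 CPM in the tested 1 hr controls and between 144.4 and 148.0 CPM in the 3 hr controls, and the oligodendrocyte sum was 6861 and 5449 CPM against between 7172 and 8694 CPM. The excitatory neuron, inhibitory neuron and astrocyte markers had 1 each called lower. For all of these, their part in the member values was not tested.

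The profile of Plk2 over the 12 libraries was most like those of Mcl1, an anti-apoptotic Bcl2 family member, Coq10b, Fbxo33, Rnd3 and Tmem74. Likeness was measured among 13167 genes as the root mean square difference of centred log2 CPM, which was between 0.0793 for Mcl1 and 0.098 for Tmem74, where Plk2 itself varied by 0.215 about its mean. Without the set-aside library 3 of these 5 stayed among the nearest (Mcl1, Coq10b and Fbxo33). For Plk3, which varied by 0.381, the nearest were Adamts1, a secreted metalloprotease, at 0.11, Lmna, which encodes A-type lamins, at 0.132, the phosphatase Dusp4 and Amigo3 at 0.139, and the kinesin Kif13b at 0.143, of which Adamts1 and Lmna stayed without the set-aside library. These genes were picked for their likeness, so their levels are a description.

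Genes known as partners, substrates or regulators of the kinases, or as markers of the same processes, were taken as 4 lists. Of 17 synaptic partners of Plk2 and Plk3, 0 were called at 1 hr by edgeR (beside 0.789% of all genes) and 1 had an unadjusted p under 0.05. At 3 hr 2 of the 17 (11.8%, beside 6.6% of all genes) were called, both higher, among them Sipa1l1, which encodes the spine protein SPAR. These are transcript levels, and SPAR protein was not measured. The list median was -0.0543 at 3 hr, with 4 members at an unadjusted p under 0.05. Sipa1l1 was at 260.2 ± 7.58 CPM in 3 hr control and 367.6 ± 19.8 CPM in 3 hr LTP (SD, n = 3 each), a log2 fold change of 0.51 (SE 0.063, edgeR adjusted p = 0.00544). Its log2 fold change at 1 hr was 0.135 (edgeR adjusted p = 0.763), and the difference between the effects, 0.38, did not pass the test (edgeR adjusted p = 0.303). Between the controls 4 of the 17 were called, 1 higher and 3 lower at 3 hr (23.5%, beside 32.8% of all genes).

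Of 21 mitotic genes listed with Plk1, which include the cycling-cell markers Mki67 and Top2a, 20 were tested. By edgeR 0 were called at 1 hr (beside 0.789% of all genes), with 1 at an unadjusted p under 0.05. At 3 hr 0 were called (beside 6.6%), with 0 at such a p. Between the controls 5 of 20 were called (25%, beside 32.8% of all genes), all higher at 3 hr: Cdc20, Ccnb1, Foxm1, Bub1b and Cdc25b, of which Cdc20 rose from 0.482 to 1.01 CPM. Of 10 centriole duplication genes that act with Plk4, 0 were called at 1 hr, with 0 at an unadjusted p under 0.05, and 1 at 3 hr (10%, beside 6.6% of all genes), namely Cep192, a centrosome scaffold that recruits Plk4, which went from 14.7 to 18.0 CPM (log2 0.31, edgeR adjusted p = 0.0562). Between the controls 3 of these 10 were called (30%, beside 32.8% of all genes), all lower at 3 hr, with log2 differences of -0.55 for Sass6, -0.53 for Cenpj and -0.31 for Cep135.

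Of 15 p53 and stress genes linked to Plk2 and Plk3, Jun, a stress-responsive AP-1 subunit, was the 1 gene called at 1 hr (6.67%, beside 0.789% of all genes), with a log2 fold change of 0.61 (118.5 to 179.3 CPM, edgeR adjusted p = 0.00544). At 3 hr 3 of the 15 were called (20%, beside 6.6% of all genes). Gadd45a, a stress-induced gene, was called higher (log2 0.33), and Bax and Bbc3, which encode pro-apoptotic proteins, were called lower (log2 -0.325 and -0.87). Bbc3 fell from 7.17 ± 1.06 CPM in control to 3.92 ± 0.830 CPM in LTP (SD, n = 3 each, edgeR adjusted p = 0.0322). Between the controls 8 of the 15 were called, 6 higher and 2 lower at 3 hr (53.3%, beside 32.8% of all genes), and the highest was Bbc3 with a log2 difference of 1.52.

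**Figure D5:**
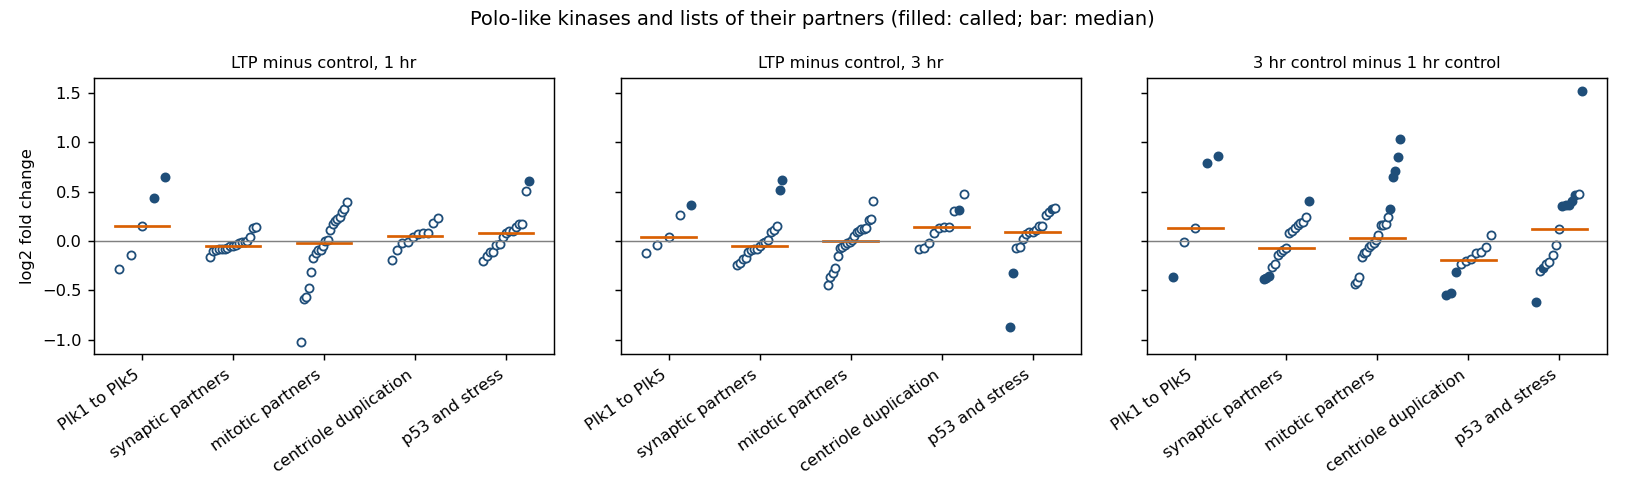
Log2 fold change of LTP against control at 1 hr and 3 hr, and of 3 hr against 1 hr controls, for the 5 members and the genes of the 4 partner lists, with 1 point per gene, called genes filled and the median as a bar. The filled synaptic partners at 3 hr include Sipa1l1, above a list median of -0.0543.

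The neighbours of Plk2, Gapt and Actbl2, were too low to test. Tctex1d4, which overlaps the 3′ end of Plk3, was below 1 CPM and was not called at 1 hr (log2 1.13, edgeR adjusted p = 0.758) or 3 hr (log2 -0.33, edgeR adjusted p = 0.624).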

How the data were processed

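Ribosome-depleted total RNA was sequenced as stranded paired-end libraries. Per the study's methods, STAR aligned the reads to the mouse assembly GRCm38, and the authors deposited raw counts per gene in 1 table for each time point. Whether the counting used strand was not stated, so values of overlapping genes are uncertain. Of 41091 gene IDs, 40217 matched GENCODE M21 without their version and 874 did not; the latter stayed in library sizes and tests. Exonic lengths come from that release and may differ from those the authors used. The study's text describes expression measured on coding reads alone; whether that holds for the deposited counts was not stated, so levels per kb are also given by coding length.

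Counts were tested in edgeR 4.0.16 (R 4.3.3) by its quasi-likelihood F test (filterByExpr, TMM, Benjamini-Hochberg adjustment over all genes), after a trial on simulated data. A call needed an adjusted p below 0.1 together with a change of more than 1.2-fold, as in the study; the difference of effects had no fold minimum. Each time point was fitted alone (5 libraries at 1 hr, 6 at 3 hr), and the other contrasts in a model of 4 groups with 11 libraries, all without an animal term. The labels state that LTP and control slices of a number came from the same animal, so the numbers pair the samples within a time. The deviations of paired libraries from their group means correlated by -0.0149, -0.156 and 0.075 at 1 hr and by 0.0385, -0.0275 and 0.218 at 3 hr over 18240 genes.

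The text names all 5 members, the called genes of each list, the 5 genes nearest to Plk2 and to Plk3, and chromosomal neighbours of Plk2 and Plk3; some of these genes are not reported here. The members and lists were chosen with earlier results of these data known. Alternatives were DESeq2 1.42.0, its size factors, total counts, 2 other filters (at least 1 count in all, or 10 in every library), the replicate block, the set-aside library included, all 4 groups in 1 model, and each library left out.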

Additional observations from a re-analysis of the deposited data

How the results depend on the processing

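For the 5 members in 4 comparisons, 314 alternative values were computed, of which 266 kept their direction and call, 16 lost a call, 3 gained one and 29 turned in sign. With the set-aside library included, Plk3 at 1 hr was 0.426 (0.452 with the replicate block), Plk4 at 1 hr -0.174 (-0.169), Plk5 at 1 hr -0.2 (-0.19), and the difference of effects -0.165 (-0.184) for Plk3 and 0.0712 (0.0409) for Plk5 in log2; between the controls it gave Plk4 -0.227 and Plk5 0.472, both without a call, and Plk2 0.0315. The replicate block on the same libraries gave Plk3 at 3 hr 0.273, a call, as did DESeq2 (0.268) and the model of 4 groups (0.264); it changed no other member's call, with Plk2 at 0.426 at 1 hr and 0.358 at 3 hr. No paired fit was made between the controls: animals carry the same numbers at 1 hr and 3 hr in the labels, which leave unsaid whether they were the same mice, and they were taken to differ. Plk2 between the controls was 0.00283 by DESeq2, 0.00284 with its size factors, 0.0254 with total counts, 0.01 with no filter and 0.0183 with the strict filter, and Plk4 -0.341 with no filter (no call). Leaving out each library in turn gave, at 1 hr, Plk1 -0.334 to 0.0993, Plk2 0.379 to 0.5 and Plk5 -0.0861 to 0.378; at 3 hr, Plk1 -0.196 to 0.237, Plk2 0.271 to 0.431, Plk3 0.177 to 0.329, Plk4 -0.0375 to 0.0831 and Plk5 -0.407 to 0.0683; for the difference of effects, Plk1 -0.121 to 0.369; and between the controls, Plk1 -0.115 to 0.313, Plk2 -0.0336 to 0.0847, Plk4 -0.402 to -0.245 and Plk5 0.626 to 0.944. Genes called over all alternatives numbered 69 to 347 at 1 hr (140 as reported), 228 to 2170 at 3 hr (1155), 1 to 102 for the difference (11) and 4212 to 6422 between the controls (6102). By coding length, the median level ratios were 28.7 for Plk2 to Plk3, 2.22 for Plk3 to Plk5, 2.97 for Plk5 to Plk4 and 4.56 for Plk4 to Plk1. The causes were not tested. Only 2 control libraries entered the 1 hr fit, so leaving out either left a single control assumed to vary like the LTP libraries. Plk1 lay on 16 to 50 counts per library.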

Other observations

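The set-aside library, 1 hr control replicate 2, was nearer to the 3 hr control mean than to the mean of the other 1 hr controls for the 3 members that differed between those groups. Its Plk3 level was 20.8 CPM, beside means of 14.1 CPM at 1 hr and 26.1 CPM at 3 hr. Its Plk5 level was 10.97 CPM, beside 6.08 and 10.7 CPM, and its Plk4 level was 4.35 CPM, beside 5.52 and 4.38 CPM. These are values of a single library, and no cause was tested.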
